A study of Homo sapiens with 16 samples.

Results

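The genes described here are 44 interferon-stimulated genes, a list that covers the antiviral effectors, the RNA sensors and the transcription factors of the type I interferon response. Affymetrix Human Gene 1.0 ST arrays report each gene as a transcript cluster, a set of probes summarised to 1 value. A gene was taken by the cluster that carries its symbol and no other symbol, or, where several did, by whichever averaged highest across the 16 arrays. Of the 44 genes, 42 had such a cluster, and 41 passed the low-value filter of a log2 signal of at least 6 (the floor) on at least 2 arrays. The array holds 33297 clusters, of which 19460 carry 1 symbol and 16175 passed that filter. DDX58, which encodes the RNA sensor RIG-I, appears here under its current symbol RIGI. DHX58 had a cluster that stayed below the floor on every array, GBP1 had only a cluster with several symbols, and STAT2 was not analysed here.

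Type I interferons bind a receptor whose kinases, JAK1 and TYK2, activate ISGF3, a transcription factor complex that contains IRF9. ISGF3 binds the interferon-stimulated response element (ISRE) in the promoters of many interferon-stimulated genes, and IRF1 and IRF7 bind closely related sequences. Viral or cellular double-stranded RNA can start the response through the sensors RIG-I and MDA5 (encoded by RIGI and IFIH1), and many of the response's components are themselves interferon-induced. EZH2 is the histone H3 methyltransferase within PRC2, a Polycomb complex known for gene repression, and EED is another core subunit of PRC2.

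Promoter sequences of IFIT1, ISG15, IFI6 and HERC5, and the interval shared by PARP9 and DTX3L, are shown because their products stand among the results below and because they carry the response element in its typical forms. They are RefSeq sequences on build GRCh38.p14, read from 5′ to 3′ on the gene's own strand. Capitals mark the core of the element, GAAA, any 2 bases and GAAA again, on either strand (its reverse complement is TTTC, any 2 bases and TTTC), extended by the CT of the longer form where that follows the second GAAA. The first 4 windows end at the base before the transcription start, at chr10:89392373-89392622 (plus strand), chr1:1013247-1013496 (plus strand), chr1:27672193-27672442 (minus strand) and chr4:88456869-88457118 (plus strand). The last is the interval between the starts of PARP9 and DTX3L, which lie 38 bases apart on opposite strands, with 10 bases on either side, at chr3:122564290-122564348 (plus strand).
IFIT1: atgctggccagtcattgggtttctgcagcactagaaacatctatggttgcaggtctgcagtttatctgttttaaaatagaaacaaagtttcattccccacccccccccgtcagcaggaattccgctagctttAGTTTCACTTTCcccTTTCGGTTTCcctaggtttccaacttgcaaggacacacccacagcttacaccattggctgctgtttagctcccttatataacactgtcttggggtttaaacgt
ISG15: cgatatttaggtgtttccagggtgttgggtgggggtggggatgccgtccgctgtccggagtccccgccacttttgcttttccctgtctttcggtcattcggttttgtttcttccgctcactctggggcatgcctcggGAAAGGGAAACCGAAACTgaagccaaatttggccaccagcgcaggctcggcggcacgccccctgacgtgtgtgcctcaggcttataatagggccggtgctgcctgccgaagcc
IFI6: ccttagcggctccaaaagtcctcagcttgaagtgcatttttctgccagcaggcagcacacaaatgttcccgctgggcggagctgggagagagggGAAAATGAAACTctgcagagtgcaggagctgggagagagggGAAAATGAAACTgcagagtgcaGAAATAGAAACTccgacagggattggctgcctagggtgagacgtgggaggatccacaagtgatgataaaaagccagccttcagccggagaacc
HERC5: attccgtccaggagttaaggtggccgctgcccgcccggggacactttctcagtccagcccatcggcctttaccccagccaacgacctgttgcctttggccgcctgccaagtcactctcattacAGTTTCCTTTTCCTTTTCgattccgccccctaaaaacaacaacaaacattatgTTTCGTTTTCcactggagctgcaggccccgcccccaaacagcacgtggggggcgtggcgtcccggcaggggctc
PARP9-DTX3L: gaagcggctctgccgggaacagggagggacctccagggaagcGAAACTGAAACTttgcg
IFIT1 holds a pair of matches in the opposite orientation, ISG15 an overlapping pair, IFI6 a row of 3, and PARP9 and DTX3L share 1. The RefSeq promoter table (250 bases before to 50 after each start) matched 35 of the 44 genes, all but IFIT2, MX2, OAS2, OASL, DHX58, USP18, IRF7, TRIM22 and GBP2. Of these, 24 (68.6%) held that core on either strand, against 4.38% of the 27305 genes in the table. The longer form with CT was found in 15 (42.9%) against 0.322%, and the gamma-activated site TTCNNNGAA in 11 (31.4%) against 9.38%. The core lies within the longer form, so those counts overlap. A match describes the letters and is not evidence of binding.

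The study placed breast cancer cell lines under stable viral expression of short hairpin RNAs (shRNA) or a cDNA. It profiled total RNA in duplicate, beside scrambled or empty-vector controls. Both lines, HCC70 and MDA-MB-468, are established basal-like lines. All groups were infected with virus, with polybrene, and selected in puromycin 48 hours after infection. Cells were seeded 24 hours before RNA extraction. HCC70 cells carried a scrambled shRNA (2 sets of 2 arrays, here set a and set b), shEZH2, shEED, EZH2 cDNA or an empty vector. The sample titles name the empty vector plKO Puro and the cDNA fip EZH2, and do not say whether these share a backbone. MDA-MB-468 cells carried a scrambled shRNA or shEZH2, with 2 arrays in each of the 8 groups. The labels do not say which scrambled set belongs to which knockdown. The sample codes place set a beside shEZH2 and set b beside shEED, so each HCC70 knockdown is given against both sets. Nothing in the labels says that duplicates came from separate cultures, whether the lines were pools or clones, or which hairpin sequences were used, so the p-values measure only the spread between these arrays. Values are log2 signals, changes are log2 differences of group means ± SE, and adjusted p-values are limma's with Benjamini-Hochberg adjustment over the 16175 clusters, called at 0.05. Levels are compared between arrays for 1 gene and not between genes, and a lower level in RNA from a whole culture cannot separate fewer expressing cells from less RNA per cell.

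The duplicate arrays correlated at 0.994 to 0.997 over all clusters, and array medians ran from 5.37 to 5.53. EZH2 fell by 1.47 with shEZH2 against set a, by 1.53 against set b, and by 1.67 in MDA-MB-468. EED fell by 0.82 with shEED against set b and by 1.21 against set a, and was itself lower in set b than in set a (-0.38 ± 0.11 (adjusted p = 0.0219)). With shEED, EZH2 was also called lower against set b (-0.24 ± 0.07 (adjusted p = 0.0456)). It was not called against set a (-0.17 ± 0.07 (adjusted p = 0.0785)). EZH2 with EZH2 cDNA differed from the empty vector by 0.29 ± 0.07 (adjusted p = 0.0961), which was not called. The 8 epithelial markers examined, among them EPCAM, CDH1 and KRT5, were above the floor on all arrays, and ESR1 and PGR were below it on all arrays. Of 7 leukocyte markers with a cluster, PTPRC, CD3E, LYZ and ITGAM were below the floor on all arrays, whereas CD14 read 9.58 to 10.89, CD68 7.37 to 9.86 and NKG7 5.79 to 6.35. CD14 averaged 10.48 in set a, 10.77 in set b, 9.90 with shEZH2 and 9.59 with shEED, and CD68 9.53, 8.81, 9.81 and 8.61. Of 4 endothelial and 5 fibroblast markers, KDR (3.87 to 6.28) and COL1A1 (6.29 to 7.56) passed the filter, and the part of these markers in the results was not tested.

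Across the 8 groups, most of the interferon-stimulated genes were highest with shEZH2 in HCC70 and lowest in MDA-MB-468. Of the 42 genes with a cluster, 30 had their highest group mean with shEZH2 in HCC70, 8 with EZH2 cDNA, 3 with the empty vector and 1 in set b. The lowest mean was in an MDA-MB-468 group for 37, with shEED for 3 and in set a for 2. The matching shares over all clusters are not given here. In scrambled controls, 32.1% of all tested clusters were lower in MDA-MB-468 than in HCC70 and 37.1% were higher. Genes below the floor on all MDA-MB-468 arrays, such as IFIT1 and IFI44L, passed the low-value filter only through HCC70. Their lowest group was thus largely fixed by the filter. Within HCC70 the usual order was shEZH2, then the empty vector, EZH2 cDNA and set b close together, then shEED and set a, as the heat map of all arrays shows.

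**Figure D1:**
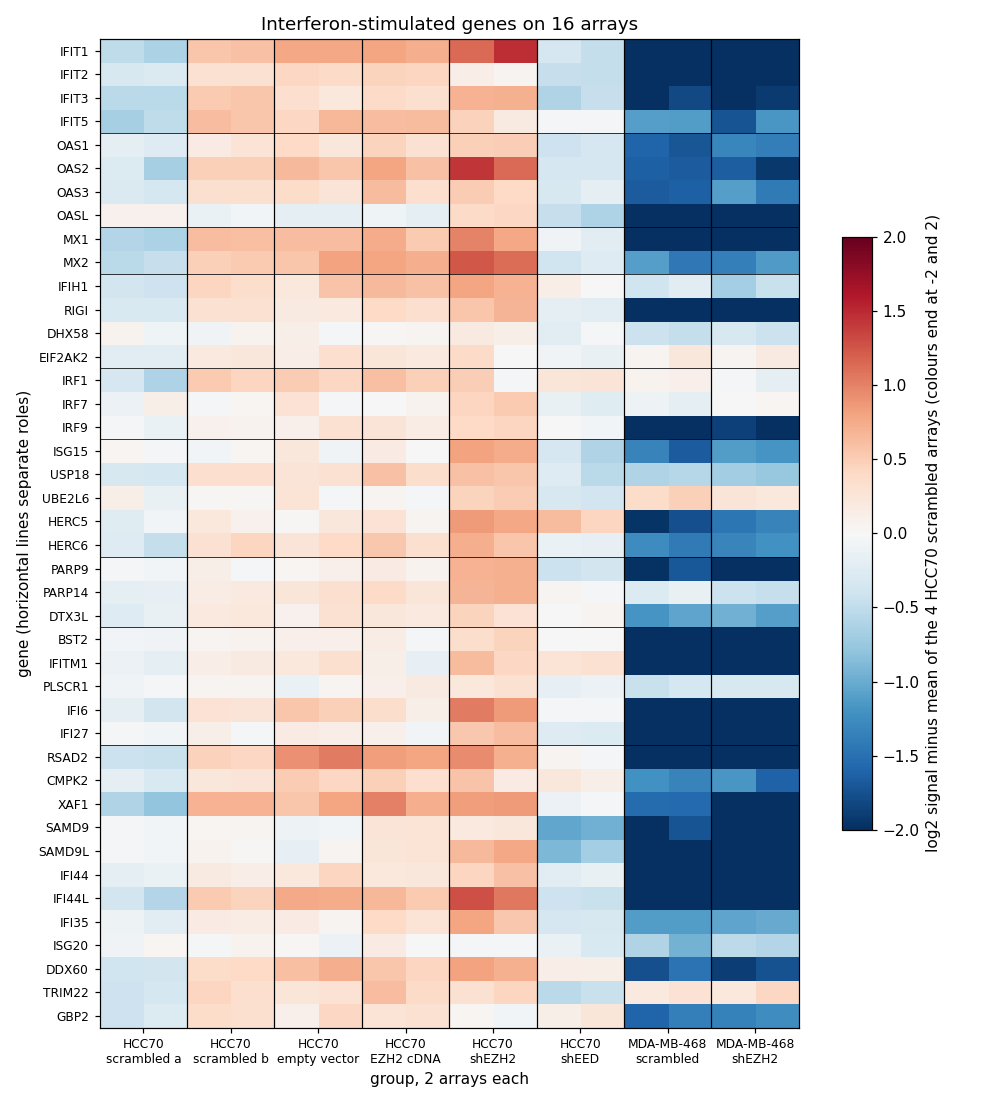
Log2 signal of the 42 interferon-stimulated genes with a cluster on each of the 16 arrays, as the difference from the gene's mean over the 4 HCC70 scrambled arrays, with rows ordered by role, columns by group, red for higher, blue for lower, and colours that end at -2 and 2. The shEZH2 pair in HCC70 has the highest mean for 30 of the 42 genes, and the MDA-MB-468 columns lie far below most HCC70 columns. The matching share over all clusters is not given. Genes below the floor on all MDA-MB-468 arrays, such as IFIT1 and IFI44L, passed the low-value filter only through HCC70.

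With shEZH2 in HCC70, most interferon-stimulated genes rose against scrambled set a and 20 of 41 rose against both sets, with a larger median change against set a. Against set a, 36 of 41 tested genes rose and 0 fell (limma; 39 higher and 0 lower at an unadjusted p under 0.05), where 7.30% of all tested clusters rose and 4.06% fell. Their median change was 0.75, against 0.01 over all tested clusters, and 12 rose at least 2-fold. Against set b, 21 rose and 1 fell, where 11.3% of clusters rose and 15.4% fell (6.47% and 17.9% with each array centred on its median). The median change was 0.34 against 0.003, and none reached 2-fold. Both shEZH2 arrays lay above both set a arrays for 40 of 41 genes (all clusters, 28.2%) and above both set b arrays for 33 (32.4%).

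The same 2 shEZH2 arrays enter both comparisons. Against both sets, 20 genes rose (3.72% of clusters) and 0 fell (2.57%). They were IFIT1, OAS1, OAS2, MX2, RIGI, IRF7, IRF9, ISG15, UBE2L6, HERC5, PARP9, PARP14, IFI6, IFI27, RSAD2, SAMD9L, IFI44, IFI44L, IFI35 and DDX60. A further 16 rose against set a only, OASL rose against set b only (0.49 ± 0.16 (adjusted p = 0.0431)), and GBP2 fell against set b only (-0.35 ± 0.11 (adjusted p = 0.0372)). IFIT2, SAMD9 and ISG20 were called against neither. Of the 20, 17 had a promoter in the table and 11 of these held the core of the response element, and of the other tested genes 12 of 16 held it.

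The empty vector gave a further control, chosen after the data were seen. Against it, 18 of 41 genes rose with shEZH2 (13.8% of clusters) and 0 fell (10.8%). Of the 20 genes, 14 rose against all 3 controls (2.80%), namely IFIT1, OAS2, MX2, RIGI, IRF7, ISG15, UBE2L6, HERC5, PARP9, PARP14, IFI6, IFI27, SAMD9L and IFI35. RSAD2 was the largest exception, at -0.14 against the empty vector. Leaving out 1 array at a time, 11 of the 20 kept both calls, and the count against set b dropped to 12 without either set b array. The others lost a call, with the ranges given beside them below. Of the genes called against 1 set, EIF2AK2, BST2, PLSCR1 and CMPK2 lost the call against set a without either set a array, and IRF1 and IFITM1 without set a replicate 2 (adjusted p up to 0.213, 0.170, 0.140, 0.149, 0.0917 and 0.0574). EIF2AK2 and CMPK2 also lost it without shEZH2 replicate 1, PLSCR1 without shEZH2 replicate 2 and BST2 without either. OASL and GBP2 lost the call against set b whichever of the 4 arrays was left out (up to 0.181 and 0.168).

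**Figure D2:**
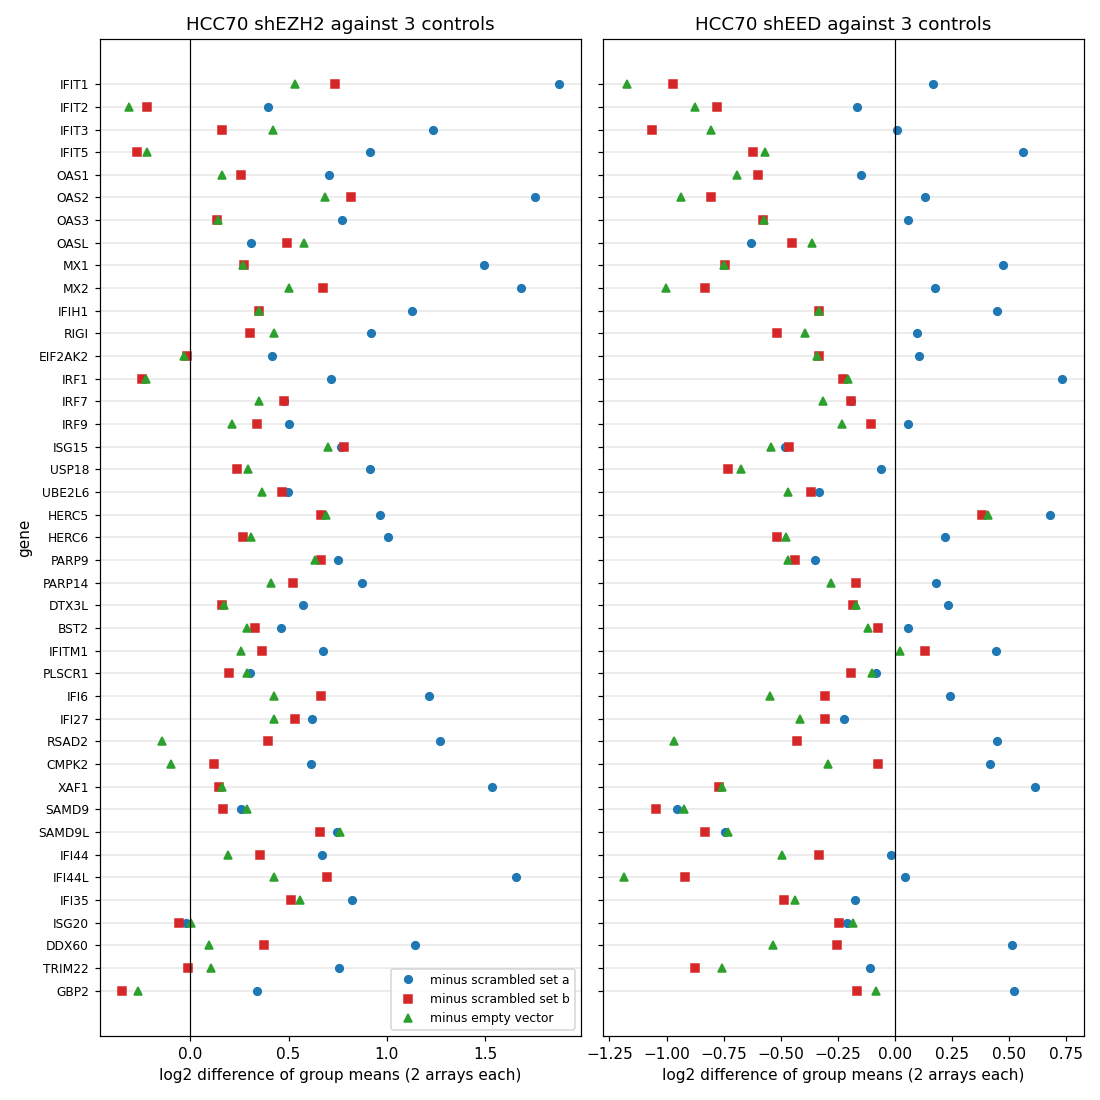
Log2 change of each tested interferon-stimulated gene in HCC70 with shEZH2 (left) and with shEED (right), with circles for the change against scrambled set a, squares against set b and triangles against the empty vector. With shEZH2 36 genes rose against set a and 21 against set b (7.30% and 11.3% of clusters), and 1 fell against set b. With shEED 24 fell and 0 rose against set b (7.53% and 6.63% of clusters). Against set a 11 rose and 6 fell with shEED, where 22.8% of clusters rose and 13.9% fell.

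With shEED in HCC70 many of these genes fell against set b, while against set a the counts in each direction were close to those of all clusters. Against set b, 24 of 41 genes fell and 0 rose (limma; 30 lower and 1 higher at an unadjusted p under 0.05), where 7.53% of clusters fell and 6.63% rose, and the median change was -0.44 against 0.02 over all tested clusters. Both shEED arrays lay below both set b arrays for 39 genes (all clusters, 30.3%). Against set a, 11 rose and 6 fell, where 22.8% rose and 13.9% fell, and the median was 0.06 against 0.03. Genes lower against both sets numbered 5 (4.74% of clusters), ISG15, UBE2L6, PARP9, SAMD9 and SAMD9L, and the same 5 were lower against both sets and the empty vector (2.78%). IFIT5, MX1, RSAD2 and XAF1 fell against set b and rose against set a. Against the empty vector alone, 27 fell (4.89%) and 1, HERC5, rose (8.62%). Of the 5, SAMD9 and SAMD9L kept both calls whichever array was left out, and the counts became 16 to 17 against set b and 10 to 11 against set a. Other calls that ended were those of IFIT5 and IFI27 against set b whichever of the 4 arrays was left out (adjusted p up to 0.122 and 0.276), of OAS3 without shEED replicate 1 (0.0617) and of HERC6 without set b replicate 2 or either shEED array (up to 0.0917). Against set a they were those of CMPK2 whichever array was left out (up to 0.196), IFIT5 without set a replicate 1 or either shEED array (up to 0.0957), IFIH1 without either set a array or shEED replicate 1 (up to 0.0960) and OASL without set a replicate 2 or shEED replicate 2 (up to 0.0790).

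The scrambled sets differed from each other in these genes. In set b, 27 of 41 genes were higher than in set a and 0 were lower (limma; 29 and 0 at an unadjusted p under 0.05), where 15.3% of clusters were higher and 7.41% lower, with a median difference of 0.49 against 0.01. With each array centred on its median the split over all clusters was 16.5% higher and 4.23% lower, and after quantile normalization 13.3% and 9.89%. The largest differences were in XAF1 (1.39), MX1 (1.22), IFIT5 (1.18), IFIT1 (1.14), IFIT3 (1.07) and MX2 (1.01), all at least 2-fold. Of the 36 genes that rose with shEZH2 against set a, 25 were also higher in set b than in set a, and 11 were not called between the sets: IRF7, IRF9, ISG15, UBE2L6, HERC5, PARP9, BST2, IFITM1, PLSCR1, IFI27 and SAMD9L. Both lists use the same set a arrays, so a low value on those arrays raises both differences. Singly, 7.30% of clusters rose with shEZH2 against set a and 15.3% were higher in set b. The share of all clusters on both lists is not given here, so the overlap is not read as particular to these genes. Whichever array was left out, 21 to 23 genes were higher in set b. The mean of both sets lay below the empty vector for 17 genes and above it for 0 (limma; 28 lower and 0 higher at an unadjusted p under 0.05), where 4.36% of clusters were lower and 6.52% higher (5.72% and 5.51% after quantile normalization). With set a alone 28 genes were below the empty vector, and with set b alone 1 gene was, RSAD2. Over all tested clusters, 4022 were called in either direction with set a alone and 307 with set b alone. Whichever array was left out, the 17 became 9 to 12. Whether set a or set b was the one handled beside each knockdown cannot be told apart from the labels.

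The IFIT proteins bind viral RNA ends and block its translation. IFIT1 read 8.78 and 8.66 in scrambled set a, 9.84 and 9.88 in set b, 10.06 and 10.06 with the empty vector, 10.08 and 10.02 with EZH2 cDNA, 10.42 and 10.77 with shEZH2 and 8.96 and 8.82 with shEED. Both shEZH2 arrays lay above every other HCC70 array and both set a arrays below. IFIT1 with shEZH2 differed by 1.87 ± 0.14 (adjusted p = 6.78e-06) from set a and by 0.74 ± 0.14 (adjusted p = 0.00227) from set b. With shEED, IFIT1 fell against set b (-0.97 ± 0.14 (adjusted p = 6.41e-04)) and was close to set a (0.17). IFIT1 in MDA-MB-468 was at 5.07 and 5.49 with scrambled shRNA and 4.76 and 4.87 with shEZH2, all below the floor. IFIT3 and IFIT5 rose with shEZH2 against set a only, by 1.23 and 0.91, with changes of 0.16 and -0.27 against set b. IFIT3 had group means of 6.19 in set a, 7.26 in set b, 7.005 with the empty vector, 7.08 with EZH2 cDNA, 7.43 with shEZH2, 6.20 with shEED, and 4.75 and 4.70 in the MDA-MB-468 scrambled and shEZH2 groups. The same groups in that order averaged 7.30, 8.48, 8.43, 8.52, 8.21, 7.86, 6.78 and 6.44 for IFIT5. IFIT2 was the only family member called against neither set with shEZH2 (0.40 and -0.22). Its highest HCC70 level was with EZH2 cDNA, as was that of IFIT5. IFIT2 means ran 8.68, 9.30, 9.39, 9.43, 9.08, 8.52, 4.99 and 4.88 in the same order. All 4 family members fell with shEED against set b, by 0.97, 0.78, 1.07 and 0.62 for IFIT1, IFIT2, IFIT3 and IFIT5.

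The OAS enzymes make oligoadenylates that activate RNase L, which degrades RNA. OAS1 read 9.42 and 9.35 in scrambled set a, 9.78 and 9.89 in set b, 10.01 and 9.84 with the empty vector, 10.05 and 9.92 with EZH2 cDNA, 10.08 and 10.10 with shEZH2 and 9.19 and 9.28 with shEED. Both shEZH2 arrays were the highest of HCC70 and both shEED arrays the lowest. OAS1 with shEZH2 differed by 0.71 ± 0.09 (adjusted p = 3.58e-04) from set a and by 0.26 ± 0.09 (adjusted p = 0.0479) from set b. The call against set b ended whichever of the 4 arrays compared was left out (changes of 0.20 to 0.31, adjusted p up to 0.262). OAS2 read 7.08 and 6.67 in scrambled set a, 7.81 and 7.82 in set b, 7.99 and 7.90 with the empty vector, 8.14 and 7.93 with EZH2 cDNA, 8.77 and 8.48 with shEZH2 and 7.01 and 7.01 with shEED. The shEZH2 arrays stood above all others, while the set a and shEED arrays overlapped at the bottom. OAS2 with shEZH2 differed by 1.75 ± 0.14 (adjusted p = 1.18e-05) from set a and by 0.82 ± 0.14 (adjusted p = 0.00142) from set b. OAS1 in MDA-MB-468 was at 8.02 and 7.90 with scrambled shRNA and 8.30 and 8.22 with shEZH2, and OAS2 there was at 5.71 and 5.67 with scrambled shRNA and 5.70 and 5.41 with shEZH2, below the floor. OAS1 and OAS2 fell with shEED against set b (-0.60 and -0.81) and were called neither way against set a (-0.15 and 0.13). OAS3 rose with shEZH2 against set a (0.77) but was not called against set b (0.14). OAS3 means were 7.82 in set a, 8.46 in set b, 8.46 with the empty vector, 8.62 with EZH2 cDNA, 8.60 with shEZH2, 7.88 with shEED, and 6.49 and 6.88 in MDA-MB-468 scrambled and shEZH2. OASL, which binds RIG-I and lacks the synthetase activity, rose against set b (0.49) and was not called against set a (0.31). OASL means in the same order were 7.79, 7.61, 7.52, 7.56, 8.10, 7.16, 4.90 and 4.74, so that, unlike the other OAS genes, set a was not below set b.

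MX1 and MX2 encode dynamin-like GTPases that trap viral particles. MX1 read 8.86 and 8.80 in scrambled set a, 10.06 and 10.04 in set b, 10.05 and 10.05 with the empty vector, 10.18 and 9.96 with EZH2 cDNA, 10.43 and 10.21 with shEZH2 and 9.37 and 9.23 with shEED. Both shEZH2 arrays were the highest of HCC70 and both set a arrays the lowest. MX1 with shEZH2 differed by 1.49 ± 0.10 (adjusted p = 2.64e-06) from set a and by 0.27 ± 0.10 (adjusted p = 0.0578) from set b. With shEED, MX1 fell against set b (-0.74 ± 0.10 (adjusted p = 4.03e-04)) and rose against set a (0.47 ± 0.10 (adjusted p = 0.00295)). MX1 in MDA-MB-468 was at 7.29 and 7.41 with scrambled shRNA and 6.82 and 6.77 with shEZH2 and fell by 0.56 with shEZH2 (adjusted p = 0.00692), the opposite direction from HCC70. MX2 read 5.37 and 5.45 in scrambled set a, 6.39 and 6.44 in set b, 6.46 and 6.71 with the empty vector, 6.70 and 6.64 with EZH2 cDNA, 7.16 and 7.02 with shEZH2 and 5.51 and 5.66 with shEED. As with MX1, set a was at the bottom and shEZH2 at the top, and the set a and shEED means were below the floor. MX2 with shEZH2 differed by 1.68 ± 0.12 (adjusted p = 6.78e-06) from set a and by 0.67 ± 0.12 (adjusted p = 0.00211) from set b. MX2 in MDA-MB-468 was below the floor on all 4 arrays, at 4.81 and 4.48 with scrambled shRNA and 4.55 and 4.78 with shEZH2, so a change there may be understated.

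Among the sensors, RIGI and IFIH1 encode the RNA helicases RIG-I and MDA5, EIF2AK2 the RNA-activated kinase PKR, and DHX58 the helicase LGP2. RIGI read 8.84 and 8.85 in scrambled set a, 9.45 and 9.46 in set b, 9.33 and 9.34 with the empty vector, 9.55 and 9.48 with EZH2 cDNA, 9.70 and 9.82 with shEZH2 and 8.97 and 8.92 with shEED. The shEZH2 arrays were the highest of HCC70 and the set a arrays the lowest. RIGI with shEZH2 differed by 0.92 ± 0.09 (adjusted p = 8.53e-05) from set a and by 0.30 ± 0.09 (adjusted p = 0.0318) from set b. The call against set b ended without shEZH2 replicate 2 or without either set b array (0.24 to 0.37, adjusted p up to 0.162). RIGI in MDA-MB-468 was at 6.20 and 6.46 with scrambled shRNA and 5.82 and 5.99 with shEZH2 and fell by 0.42 with shEZH2. IFIH1 read 7.23 and 7.18 in scrambled set a, 8.02 and 7.95 in set b, 7.80 and 8.17 with the empty vector, 8.24 and 8.18 with EZH2 cDNA, 8.38 and 8.28 with shEZH2 and 7.72 and 7.58 with shEED. IFIH1 rose against set a and was not called against set b, although both shEZH2 arrays were above every other HCC70 array. IFIH1 with shEZH2 differed by 1.13 ± 0.12 (adjusted p = 1.35e-04) from set a and by 0.35 ± 0.12 (adjusted p = 0.0534) from set b. IFIH1 in MDA-MB-468 was at 7.19 and 7.37 with scrambled shRNA and 6.92 and 7.16 with shEZH2, a range that overlapped set a of HCC70. EIF2AK2 read 9.96 and 9.97 in scrambled set a, 10.38 and 10.42 in set b, 10.31 and 10.52 with the empty vector, 10.42 and 10.37 with EZH2 cDNA, 10.57 and 10.20 with shEZH2 and 10.11 and 10.03 with shEED. The groups other than set a and shEED overlapped, and set a was the lowest. EIF2AK2 with shEZH2 differed by 0.42 ± 0.12 (adjusted p = 0.0406) from set a and by -0.02 ± 0.12 (adjusted p = 0.932) from set b. EIF2AK2 in MDA-MB-468 was at 10.24 and 10.40 with scrambled shRNA and 10.24 and 10.36 with shEZH2, within the HCC70 range. DHX58 stayed below the floor throughout and was not tested: it read 5.71 and 5.55 in scrambled set a, 5.58 and 5.72 in set b, 5.76 and 5.62 with the empty vector, 5.66 and 5.69 with EZH2 cDNA, 5.82 and 5.76 with shEZH2 and 5.43 and 5.61 with shEED, and 5.21 and 5.17 with scrambled shRNA and 5.33 and 5.21 with shEZH2 in MDA-MB-468. With shEED, RIGI fell against set b (-0.52 ± 0.09 (adjusted p = 0.00329)), IFIH1 rose against set a (0.45 ± 0.12 (adjusted p = 0.0136)), and EIF2AK2 was called against neither (-0.33 and 0.10).

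Of the transcription factors, IRF7 and IRF9 rose with shEZH2 against both sets and IRF1 against set a only. IRF9 read 9.57 and 9.48 in scrambled set a, 9.70 and 9.68 in set b, 9.72 and 9.92 with the empty vector, 9.88 and 9.76 with EZH2 cDNA, 10.01 and 10.04 with shEZH2 and 9.62 and 9.55 with shEED. IRF9, the DNA-binding subunit of ISGF3, was highest on both shEZH2 arrays. IRF9 with shEZH2 differed by 0.50 ± 0.09 (adjusted p = 0.00525) from set a and by 0.34 ± 0.09 (adjusted p = 0.0194) from set b. IRF7 read 6.47 and 6.71 in scrambled set a, 6.55 and 6.63 in set b, 6.89 and 6.54 with the empty vector, 6.61 and 6.66 with EZH2 cDNA, 7.02 and 7.11 with shEZH2 and 6.45 and 6.35 with shEED. IRF7, which drives interferon transcription, was highest on both shEZH2 arrays and lowest on both shEED arrays. IRF7 with shEZH2 differed by 0.47 ± 0.11 (adjusted p = 0.0196) from set a and by 0.48 ± 0.11 (adjusted p = 0.00891) from set b. Scrambled sets a and b averaged 6.59 and 6.59 for IRF7. IRF1 read 8.04 and 7.76 in scrambled set a, 8.90 and 8.80 in set b, 8.88 and 8.79 with the empty vector, 8.97 and 8.85 with EZH2 cDNA, 8.86 and 8.36 with shEZH2 and 8.62 and 8.64 with shEED. IRF1, a factor of the interferon gamma response, separated set a from all other HCC70 arrays, and the rest overlapped. IRF1 with shEZH2 differed by 0.71 ± 0.14 (adjusted p = 0.00810) from set a and by -0.24 ± 0.14 (adjusted p = 0.229) from set b. IRF1 with shEED showed the same pattern, at 0.73 ± 0.14 (adjusted p = 0.00201) against set a and -0.23 ± 0.14 (adjusted p = 0.353) against set b. IRF9 in MDA-MB-468 was at 7.55 and 7.58 with scrambled shRNA and 7.74 and 7.53 with shEZH2, below all HCC70 arrays. IRF7 there was at 6.49 and 6.39 with scrambled shRNA and 6.60 and 6.62 with shEZH2, and IRF1 at 8.44 and 8.48 with scrambled shRNA and 8.35 and 8.20 with shEZH2, both within the HCC70 range. Single arrays ended calls here: for IRF9 against set a, set a replicate 2 (0.45 to 0.55, adjusted p up to 0.0595), and against set b, shEZH2 replicate 2 or either set b array (0.32 to 0.35, up to 0.100). For IRF7 they were set a replicate 1 or shEZH2 replicate 2 against set a (0.36 to 0.59, up to 0.160) and shEZH2 replicate 2 or set b replicate 1 against set b (0.43 to 0.52, up to 0.0735).

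**Figure D3:**
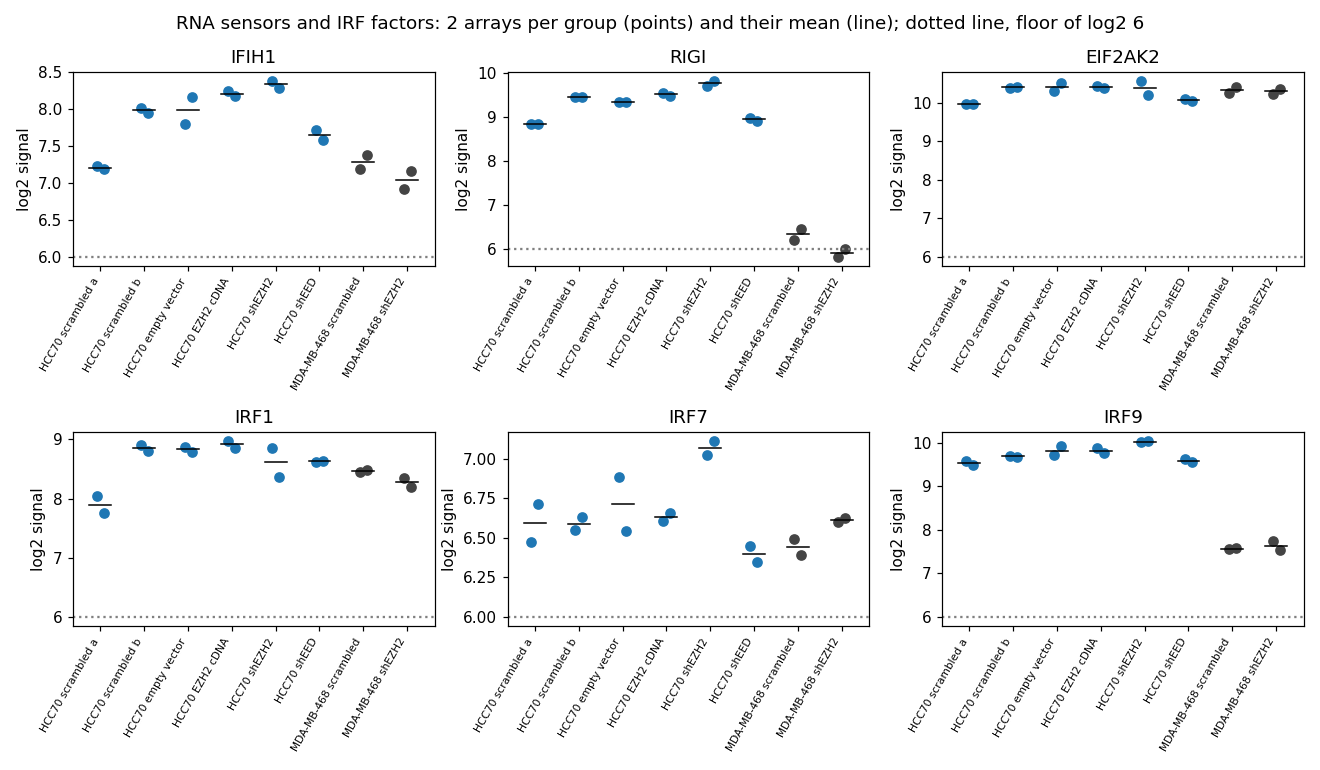
Log2 signal on each array of the sensors IFIH1, RIGI and EIF2AK2 and of IRF1, IRF7 and IRF9 in the 8 groups, with each array as a point, the mean of each pair as a short line and the floor as a dotted line, on a scale of its own for each gene. IFIH1, RIGI, IRF7 and IRF9 were highest with shEZH2 in HCC70, and IRF1 and EIF2AK2 were lowest in HCC70 in set a.

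ISG15 is a ubiquitin-like protein attached to targets by a conjugating enzyme (UBE2L6) and a ligase (HERC5) and removed by USP18. ISG15 read 7.40 and 7.35 in scrambled set a, 7.30 and 7.41 in set b, 7.59 and 7.29 with the empty vector, 7.53 and 7.38 with EZH2 cDNA, 8.17 and 8.10 with shEZH2 and 7.02 and 6.76 with shEED. All 6 scrambled and empty-vector arrays and the cDNA arrays overlapped, shEZH2 lay above them and shEED below. ISG15 with shEZH2 differed by 0.77 ± 0.13 (adjusted p = 0.00308) from set a and by 0.78 ± 0.13 (adjusted p = 0.00110) from set b. ISG15 with shEED differed by -0.46 ± 0.13 (adjusted p = 0.0343) from set b and by -0.48 ± 0.13 (adjusted p = 0.0133) from set a. ISG15 in MDA-MB-468 was at 6.03 and 5.70 with scrambled shRNA and 6.25 and 6.19 with shEZH2, a difference that was not called (0.36 ± 0.13 (adjusted p = 0.108)). UBE2L6 read 8.33 and 8.07 in scrambled set a, 8.23 and 8.23 in set b, 8.48 and 8.18 with the empty vector, 8.27 and 8.17 with EZH2 cDNA, 8.66 and 8.73 with shEZH2 and 7.90 and 7.83 with shEED. UBE2L6 followed ISG15, with shEZH2 on top, shEED at the bottom and the controls overlapping. UBE2L6 with shEZH2 differed by 0.50 ± 0.11 (adjusted p = 0.0133) from set a and by 0.47 ± 0.11 (adjusted p = 0.00847) from set b. UBE2L6 with shEED differed by -0.37 ± 0.11 (adjusted p = 0.0443) from set b and by -0.33 ± 0.11 (adjusted p = 0.0317) from set a. UBE2L6 was among the few genes higher in MDA-MB-468, at 8.58 and 8.70 with scrambled shRNA and 8.48 and 8.43 with shEZH2. HERC5 read 7.32 and 7.50 in scrambled set a, 7.77 and 7.64 in set b, 7.58 and 7.78 with the empty vector, 7.85 and 7.61 with EZH2 cDNA, 8.41 and 8.33 with shEZH2 and 8.18 and 7.99 with shEED. HERC5 differed from ISG15 in that the shEED arrays were the next highest after shEZH2. HERC5 with shEZH2 differed by 0.96 ± 0.12 (adjusted p = 3.46e-04) from set a and by 0.67 ± 0.12 (adjusted p = 0.00170) from set b. HERC5 rose with shEED against set a (0.68 ± 0.12 (adjusted p = 0.00101)) and was not called against set b (0.38 ± 0.12 (adjusted p = 0.0524)). HERC5 in MDA-MB-468 was at 5.59 and 5.80 with scrambled shRNA and 6.11 and 6.22 with shEZH2, and rose with shEZH2 by 0.47 ± 0.12 (adjusted p = 0.0351). USP18 and HERC6 rose with shEZH2 against set a, by 0.91 and 1.003, and were not called against set b (0.24 and 0.27). USP18 means were 8.77 in set a, 9.44 in set b, 9.39 with the empty vector, 9.57 with EZH2 cDNA, 9.68 with shEZH2, 8.71 with shEED, and 8.52 and 8.37 in MDA-MB-468 scrambled and shEZH2. HERC6 means in that order were 7.64, 8.37, 8.33, 8.44, 8.64, 7.86, 6.67 and 6.74. The UBE2L6 call against set a ended without set a replicate 2 (0.37 to 0.63, adjusted p up to 0.139) and that against set b without either set b array (0.43 to 0.50, up to 0.0536). With shEED the ISG15 call ended without shEED replicate 2 or any 1 scrambled array (-0.59 to -0.33 against set b and -0.61 to -0.35 against set a). The UBE2L6 call with shEED ended whichever array was left out against set b (-0.40 to -0.33) and without either shEED array or set a replicate 1 against set a (-0.46 to -0.20).

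PARP9 and DTX3L, which share the promoter interval printed above, form an ADP-ribosyltransferase and ubiquitin ligase complex, and PARP14 is a related ADP-ribosyltransferase. PARP9 read 10.12 and 10.09 in scrambled set a, 10.27 and 10.12 in set b, 10.19 and 10.26 with the empty vector, 10.31 and 10.23 with EZH2 cDNA, 10.85 and 10.86 with shEZH2 and 9.73 and 9.79 with shEED. Both shEZH2 arrays lay above, and both shEED arrays below, every other HCC70 array. PARP9 with shEZH2 differed by 0.75 ± 0.10 (adjusted p = 5.03e-04) from set a and by 0.66 ± 0.10 (adjusted p = 4.84e-04) from set b. PARP9 with shEED differed by -0.44 ± 0.10 (adjusted p = 0.0107) from set b and by -0.35 ± 0.10 (adjusted p = 0.0157) from set a. DTX3L rose with shEZH2 against set a (0.57 ± 0.10 (adjusted p = 0.00275)) and was not called against set b (0.16 ± 0.10 (adjusted p = 0.235)), and with shEED it was called against neither (-0.18 and 0.23). DTX3L means were 9.92 in set a, 10.33 in set b, 10.32 with the empty vector, 10.34 with EZH2 cDNA, 10.49 with shEZH2, 10.15 with shEED, and 9.01 and 9.09 in MDA-MB-468 scrambled and shEZH2. The scrambled sets differed in DTX3L (0.41, called) and not in PARP9 (0.09), and the difference between the genes was not tested. PARP14 read 9.06 and 9.08 in scrambled set a, 9.40 and 9.44 in set b, 9.49 and 9.57 with the empty vector, 9.63 and 9.49 with EZH2 cDNA, 9.93 and 9.96 with shEZH2 and 9.30 and 9.20 with shEED. The shEZH2 arrays were the highest and the set a arrays the lowest of HCC70. PARP14 with shEZH2 differed by 0.87 ± 0.08 (adjusted p = 3.28e-05) from set a and by 0.52 ± 0.08 (adjusted p = 5.81e-04) from set b. PARP9 in MDA-MB-468 was at 8.17 and 8.46 with scrambled shRNA and 7.98 and 8.10 with shEZH2 and PARP14 there at 8.97 and 9.10 with scrambled shRNA and 8.82 and 8.79 with shEZH2. The PARP9 calls with shEED ended without set b replicate 1 or either shEED array against set b (-0.51 to -0.37) and whichever array was left out against set a (-0.38 to -0.32).

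Of the membrane proteins, IFI6 and IFI27 rose with shEZH2 against both sets. IFI6 read 11.49 and 11.31 in scrambled set a, 11.97 and 11.93 in set b, 12.23 and 12.16 with the empty vector, 12.02 and 11.79 with EZH2 cDNA, 12.71 and 12.53 with shEZH2 and 11.64 and 11.66 with shEED. The shEZH2 arrays were the highest and the set a arrays the lowest of HCC70. IFI6 with shEZH2 differed by 1.22 ± 0.10 (adjusted p = 2.06e-05) from set a and by 0.67 ± 0.10 (adjusted p = 7.22e-04) from set b. IFI6 in MDA-MB-468 was at 6.89 and 6.90 with scrambled shRNA and 6.39 and 6.59 with shEZH2, far below HCC70, and fell with shEZH2 by 0.41 (adjusted p = 0.0351). IFI27 read 11.06 and 11.03 in scrambled set a, 11.21 and 11.05 in set b, 11.24 and 11.23 with the empty vector, 11.19 and 11.04 with EZH2 cDNA, 11.62 and 11.70 with shEZH2 and 10.82 and 10.82 with shEED. Both shEZH2 arrays lay above the other groups and both shEED arrays below them. IFI27 with shEZH2 differed by 0.62 ± 0.09 (adjusted p = 7.98e-04) from set a and by 0.53 ± 0.09 (adjusted p = 8.66e-04) from set b. IFI27 in MDA-MB-468 was below the floor, at 5.86 and 5.78 with scrambled shRNA and 5.78 and 5.63 with shEZH2. IFITM1 read 10.75 and 10.68 in scrambled set a, 10.999 and 11.05 in set b, 11.07 and 11.19 with the empty vector, 10.99 and 10.71 with EZH2 cDNA, 11.49 and 11.28 with shEZH2 and 11.14 and 11.17 with shEED. IFITM1, which blocks virus entry, was highest on the shEZH2 arrays, but the call was made against set a only. IFITM1 with shEZH2 differed by 0.68 ± 0.13 (adjusted p = 0.00598) from set a and by 0.37 ± 0.13 (adjusted p = 0.0530) from set b. With shEED, IFITM1 was higher than set a (0.44 ± 0.13 (adjusted p = 0.0183)), where most of these genes were not. IFITM1 in MDA-MB-468 was at 7.83 and 8.21 with scrambled shRNA and 7.44 and 7.38 with shEZH2 and fell by 0.61 with shEZH2 (adjusted p = 0.0169). Without set a replicate 2 the IFITM1 call with shEZH2 in HCC70 ended (adjusted p = 0.0574), and its call with shEED against set a ended whichever array was left out (up to 0.0995). BST2, which tethers virions to the cell, and PLSCR1, a phospholipid scramblase, rose against set a only (0.46 and 0.31; 0.33 and 0.20 against set b). BST2 means were 10.80 in set a, 10.93 in set b, 10.97 with the empty vector, 10.93 with EZH2 cDNA, 11.26 with shEZH2, 10.86 with shEED, and 5.90 and 5.63 in MDA-MB-468 scrambled and shEZH2. PLSCR1 means in that order were 9.87, 9.98, 9.89, 10.07, 10.18, 9.79, 9.53 and 9.61.

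SAMD9 and SAMD9L are neighbouring antiviral genes whose products restrain translation and growth, and both fell with shEED against both sets. SAMD9 read 10.04 and 10.02 in scrambled set a, 10.12 and 10.13 in set b, 9.98 and 10.02 with the empty vector, 10.34 and 10.35 with EZH2 cDNA, 10.28 and 10.30 with shEZH2 and 9.03 and 9.12 with shEED. The shEED arrays lay below every other HCC70 array, while shEZH2 was called against neither set. SAMD9 with shEZH2 differed by 0.26 ± 0.11 (adjusted p = 0.155) from set a and by 0.17 ± 0.11 (adjusted p = 0.285) from set b. SAMD9 with shEED differed by -1.05 ± 0.11 (adjusted p = 7.13e-05) from set b and by -0.95 ± 0.11 (adjusted p = 5.74e-05) from set a. SAMD9 in MDA-MB-468 was at 7.93 and 8.35 with scrambled shRNA and 7.58 and 7.64 with shEZH2 and fell by 0.53 with shEZH2 (adjusted p = 0.0158). SAMD9L read 7.99 and 7.99 in scrambled set a, 8.10 and 8.05 in set b, 7.87 and 8.08 with the empty vector, 8.27 and 8.31 with EZH2 cDNA, 8.68 and 8.80 with shEZH2 and 7.13 and 7.36 with shEED. Unlike SAMD9, SAMD9L was highest on the shEZH2 arrays, and again lowest on the shEED arrays. SAMD9L with shEZH2 differed by 0.75 ± 0.14 (adjusted p = 0.00497) from set a and by 0.66 ± 0.14 (adjusted p = 0.00438) from set b. SAMD9L with shEED differed by -0.83 ± 0.14 (adjusted p = 0.00187) from set b and by -0.74 ± 0.14 (adjusted p = 0.00146) from set a. SAMD9L in MDA-MB-468 was below the floor, at 5.20 and 5.44 with scrambled shRNA and 4.68 and 5.10 with shEZH2.

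RSAD2 (viperin) and CMPK2 are neighbouring genes that act on nucleotides. RSAD2 read 7.49 and 7.48 in scrambled set a, 8.38 and 8.34 in set b, 8.84 and 8.96 with the empty vector, 8.76 and 8.72 with EZH2 cDNA, 8.87 and 8.64 with shEZH2 and 7.98 and 7.89 with shEED. The shEZH2 arrays overlapped the empty-vector and cDNA arrays, and set a was the lowest. RSAD2 with shEZH2 differed by 1.27 ± 0.10 (adjusted p = 9.93e-06) from set a and by 0.40 ± 0.10 (adjusted p = 0.0124) from set b. The call against set b ended without shEZH2 replicate 1 or either set b array (0.28 to 0.51, adjusted p up to 0.0827). With shEED, RSAD2 was lower than set b (-0.43 ± 0.10 (adjusted p = 0.0139)), which was lost whichever of the 4 arrays was left out, and higher than set a (0.45 ± 0.10 (adjusted p = 0.00460)). RSAD2 in MDA-MB-468 was below the floor, at 4.87 and 5.06 with scrambled shRNA and 5.28 and 5.10 with shEZH2. CMPK2 rose with shEZH2 (0.62) and with shEED (0.42) against set a and was called with neither against set b (0.12 and -0.08). CMPK2 means were 7.45 in set a, 7.95 in set b, 8.17 with the empty vector, 8.11 with EZH2 cDNA, 8.07 with shEZH2, 7.87 with shEED, and 6.43 and 6.31 in MDA-MB-468 scrambled and shEZH2.

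IFI44L read 9.12 and 8.89 in scrambled set a, 10.002 and 9.93 in set b, 10.24 and 10.22 with the empty vector, 10.15 and 10.001 with EZH2 cDNA, 10.78 and 10.54 with shEZH2 and 9.06 and 9.03 with shEED. The shEZH2 arrays stood above all others, and set a overlapped shEED at the bottom. IFI44L with shEZH2 differed by 1.66 ± 0.16 (adjusted p = 6.08e-05) from set a and by 0.69 ± 0.16 (adjusted p = 0.00832) from set b. IFI44 read 9.11 and 9.16 in scrambled set a, 9.48 and 9.43 in set b, 9.50 and 9.73 with the empty vector, 9.51 and 9.53 with EZH2 cDNA, 9.73 and 9.89 with shEZH2 and 9.09 and 9.15 with shEED. The shEZH2 arrays overlapped the empty vector at the top. IFI44 with shEZH2 differed by 0.67 ± 0.09 (adjusted p = 6.21e-04) from set a and by 0.35 ± 0.09 (adjusted p = 0.0127) from set b. These are neighbouring genes, and both fell with shEED against set b (-0.92 and -0.33). In MDA-MB-468 they read differently: IFI44L was below the floor, at 3.79 and 3.87 with scrambled shRNA and 3.68 and 4.29 with shEZH2. IFI44 there was at 6.55 and 6.67 with scrambled shRNA and 6.98 and 6.998 with shEZH2 and rose with shEZH2 by 0.38 ± 0.09 (adjusted p = 0.0263). The IFI44L call against set b ended without set b replicate 2 (adjusted p = 0.0585), and the IFI44 call without shEZH2 replicate 2 or either set b array (0.27 to 0.43, up to 0.0904). The call of IFI44 with shEED against set b ended whichever of the 4 arrays was left out (-0.36 to -0.30).

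IFI35 read 8.91 and 8.80 in scrambled set a, 9.17 and 9.15 in set b, 9.17 and 9.06 with the empty vector, 9.40 and 9.28 with EZH2 cDNA, 9.80 and 9.55 with shEZH2 and 8.67 and 8.69 with shEED. IFI35, a partner of NMI in innate immune signalling, was highest on the shEZH2 arrays and lowest on the shEED arrays. IFI35 with shEZH2 differed by 0.82 ± 0.09 (adjusted p = 1.50e-04) from set a and by 0.51 ± 0.09 (adjusted p = 0.00162) from set b. IFI35 in MDA-MB-468 was at 7.90 and 7.89 with scrambled shRNA and 7.95 and 7.995 with shEZH2. DDX60 read 7.71 and 7.74 in scrambled set a, 8.47 and 8.50 in set b, 8.70 and 8.84 with the empty vector, 8.66 and 8.53 with EZH2 cDNA, 8.92 and 8.82 with shEZH2 and 8.24 and 8.23 with shEED. DDX60, a helicase related to RIG-I, was lowest in set a, and 1 of the shEZH2 arrays lay below an empty-vector array. DDX60 with shEZH2 differed by 1.14 ± 0.10 (adjusted p = 2.46e-05) from set a and by 0.38 ± 0.10 (adjusted p = 0.0167) from set b. DDX60 in MDA-MB-468 was at 6.35 and 6.63 with scrambled shRNA and 6.22 and 6.36 with shEZH2. The DDX60 call against set b ended without shEZH2 replicate 1 or either set b array (0.33 to 0.43, adjusted p up to 0.0952). XAF1 read 6.70 and 6.50 in scrambled set a, 7.99 and 7.98 in set b, 7.86 and 8.09 with the empty vector, 8.30 and 8.01 with EZH2 cDNA, 8.13 and 8.14 with shEZH2 and 7.17 and 7.26 with shEED. XAF1, an antagonist of the apoptosis inhibitor XIAP, separated set a from all other groups, and the shEZH2 arrays overlapped EZH2 cDNA. XAF1 with shEZH2 differed by 1.53 ± 0.11 (adjusted p = 6.78e-06) from set a and by 0.15 ± 0.11 (adjusted p = 0.359) from set b. With shEED, XAF1 fell against set b (-0.77 ± 0.11 (adjusted p = 8.75e-04)) and rose against set a (0.62 ± 0.11 (adjusted p = 0.00145)). XAF1 in MDA-MB-468 was below the floor, at 5.76 and 5.74 with scrambled shRNA and 4.90 and 5.08 with shEZH2 and fell by 0.76 with shEZH2 (adjusted p = 0.00321).

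TRIM22, GBP2 and ISG20 each departed in part from the common pattern, TRIM22 by a level in MDA-MB-468 that lay within its HCC70 range. The MDA-MB-468 levels of EIF2AK2, IRF1, IRF7 and UBE2L6 also lay within their HCC70 ranges, so this does not set TRIM22 apart. TRIM22, a ubiquitin ligase, rose with shEZH2 against set a (0.75) and not against set b (-0.01), and fell with shEED against set b (-0.87). IFIT3, OAS3, USP18 and HERC6 had the same calls. TRIM22 means were 6.65 in set a, 7.41 in set b, 7.29 with the empty vector, 7.53 with EZH2 cDNA, 7.40 with shEZH2, 6.54 with shEED, and 7.28 and 7.35 in MDA-MB-468 scrambled and shEZH2. GBP2, a guanylate-binding protein of the interferon gamma response, averaged 8.23, 8.92, 8.84, 8.87, 8.57, 8.76, 7.10 and 7.28 in that order. A second GBP2 cluster with 1 symbol was called higher with shEZH2 against set a (0.41), where the one used here was not called (0.34 ± 0.11 (adjusted p = 0.0721)). The second cluster was also called lower with shEED against set b (-0.54) and higher with shEZH2 in MDA-MB-468 (0.50). The one used here was called in neither (-0.17 and 0.18). With shEZH2 against set b both were called lower, at -0.70 for the second cluster and -0.35 for the one used here. ISG20, an exonuclease, varied little in HCC70, at means of 6.37, 6.40, 6.34, 6.46, 6.35 and 6.16, and was below the floor in MDA-MB-468 (5.62 and 5.82).

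The knockdowns were also set directly against each other, without either scrambled set. The sample codes place them beside different sets, which differed in 27 of these 41 genes, so a handling difference of that kind and the difference between the knockdowns cannot be told apart. With shEZH2, 33 of 41 genes were higher than with shEED and 0 were lower (limma; 36 and 0 at an unadjusted p under 0.05), where 13.1% of clusters were higher and 18.8% lower (8.48% and 22.0% with each array centred on its median), with a median difference of 0.82 against -0.02 over all tested clusters. The largest differences were in IFIT1 (1.71), OAS2 (1.62), IFI44L (1.61), MX2 (1.504) and SAMD9L (1.49). IFIT5, EIF2AK2, IRF1, HERC5, IFITM1, CMPK2, ISG20 and GBP2 were not called, with differences from -0.18 to 0.35. Whichever array was left out, 31 to 33 genes were higher.

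EZH2 cDNA moved none of these genes past the threshold. Against the empty vector, 0 of 41 genes rose and 0 fell (limma; 5 higher and 2 lower at an unadjusted p under 0.05, and 0 under every alternative setting), where 0.909% of clusters rose and 0.0680% fell. The changes ran from -0.28 (IFI6) to 0.35 (SAMD9), with a median of 0.04 and a median SE of 0.11. The EZH2 signal itself was not called in that comparison, as given above.

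MDA-MB-468 cells expressed most of these genes at far lower levels than HCC70. In scrambled controls, 36 of 41 genes were lower in MDA-MB-468 than in HCC70 sets a and b, 31 of them at least 2-fold, and 2 were higher, where 32.1% of clusters were lower and 37.1% higher. The median difference was -1.65, against 0.02 over all tested clusters. Genes below the floor on all MDA-MB-468 arrays, such as IFIT1, IFIT2 and IFI44L, passed the low-value filter only through HCC70. Their lower level in MDA-MB-468 was thus largely fixed by the filter, and the counts and the median include them. IFI44L (-5.65), IFI27 (-5.26), BST2 (-4.97), IFI6 (-4.78), IFIT1 (-4.01) and IFIT2 (-4.003) were among the larger differences. Of these genes, all but IFI6 had an MDA-MB-468 mean below the floor, so their differences may be understated and their order is not settled. UBE2L6 (0.43) and TRIM22 (0.25) were higher, and EIF2AK2 (0.14), IRF1 (0.09) and IRF7 (-0.15) were not called. Of 42 genes, 16 had a mean below the floor in the MDA-MB-468 scrambled group and 15 with shEZH2, so their changes there may be understated.

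With shEZH2 in MDA-MB-468, few of these genes changed, and more fell than rose. HERC5 and IFI44 rose and MX1, RIGI, IFITM1, IFI6, XAF1 and SAMD9 fell, with changes given above, so that 2 rose and 6 fell of 41, where 2.73% of clusters rose and 5.57% fell (1.40% and 6.02% with each array centred on its median). The median change was -0.12 against -0.02. Of the genes called, XAF1 averaged under the floor with either shRNA, HERC5 with the scrambled one and RIGI with shEZH2, so the size of these changes is uncertain. XAF1 alone kept its call whichever array was left out; without scrambled replicate 2 there was 1 call, without shEZH2 replicate 1 there were 2, and at most there were 10. For the others the ranges were 0.36 to 0.57 for HERC5, 0.32 to 0.44 for IFI44, -0.62 to -0.50 for MX1, -0.55 to -0.30 for RIGI, -0.80 to -0.42 for IFITM1, -0.51 to -0.31 for IFI6 and -0.74 to -0.32 for SAMD9. HERC5 and IFI44 lost the call whichever array was left out, MX1 without scrambled replicate 2, and RIGI and SAMD9 without scrambled replicate 2 or shEZH2 replicate 1. IFITM1 lost it without scrambled replicate 2 or either shEZH2 array, and IFI6 without shEZH2 replicate 1 or either scrambled array.

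The difference between the lines was tested as the change with shEZH2 in HCC70 minus that in MDA-MB-468. Against set a, it was positive and called for 28 of 41 genes and negative for 0 (limma; 36 and 0 at an unadjusted p under 0.05), where 8.97% of clusters were higher and 4.27% lower. Against set b it was positive for 18 and negative for 1, GBP2, where 8.17% were higher and 7.99% lower. All 18 were also called against set a (4.36% of clusters were higher against both), and both tests use the same shEZH2 and MDA-MB-468 arrays. The largest against set b were IFIT1 (1.20), SAMD9L (1.09), IFI6 (1.08) and IFITM1 (0.98), and against set a IFIT1 (2.34), XAF1 (2.29) and MX1 (2.05). IFIT1, SAMD9L, XAF1, OAS2, MX2, BST2 and IFI27, all among the 18, averaged under the floor with either shRNA in MDA-MB-468. So did IFIT3, RSAD2 and IFI44L, which were called against set a only. A change at such levels may be understated, so the order of these differences is not settled. How far the floor shaped the calls was not tested. Whichever array was left out, 23 to 30 genes were called against set a and 12 to 18 against set b. Of the 18, MX2, IFIH1, UBE2L6, BST2, IFI35 and DDX60 lost the call against set b without some single array (lowest differences of 0.49, 0.48, 0.60, 0.39, 0.31 and 0.44), in each case without either set b array among others, and so did GBP2. Against set a, IRF1, UBE2L6, DTX3L, BST2 and CMPK2 lost it without some single array, set a replicate 2 and MDA-MB-468 scrambled replicate 2 in each case among them. ISG15, HERC5, OAS1, IRF7, IRF9 and IFI44 rose in HCC70 against both sets and were called in neither test of the difference, with ISG15 at 0.41 and 0.42.

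**Figure D4:**
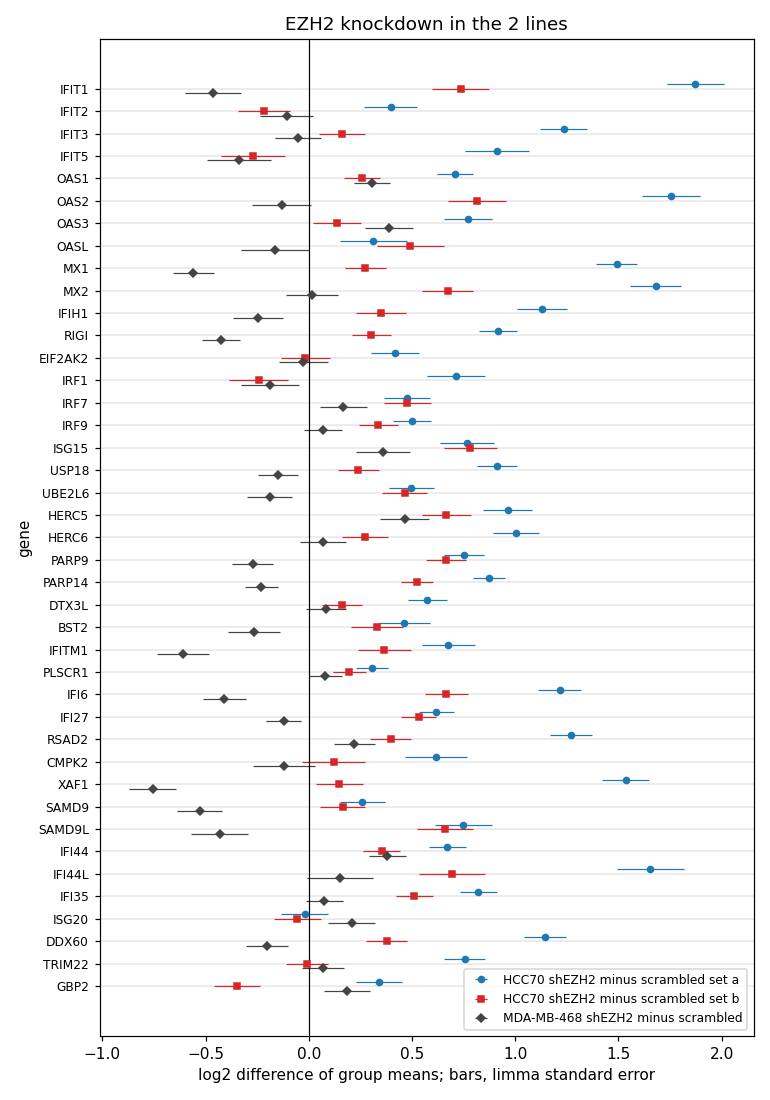
Log2 change with shEZH2 in HCC70 (against set a and against set b) and in MDA-MB-468 for each tested interferon-stimulated gene, with circles for set a, squares for set b, diamonds for MDA-MB-468 and bars for limma's standard error. The HCC70 points lie mostly above 0, with 36 and 21 genes called higher (7.30% and 11.3% of clusters) and 1 called lower against set b. The MDA-MB-468 points scatter around 0, with 2 called higher and 6 lower (2.73% and 5.57% of clusters).

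Other genes of the pathway came from a separate list of 95, of which 61 were tested. Of 21 interferon ligand genes, 16 had a cluster and 15 of these stayed below the floor on every array (2.91 to 5.65). The exception was IFNL3, at 7.29 to 8.18, which was called in none of the treatment comparisons. The 8 receptor and kinase genes tested were called with shEZH2 only once, JAK1 against set b (-0.28), a name chosen after its value was seen. With shEZH2, 18 of 61 rose and 1 fell against set a (7.30% and 4.06% of clusters), and 17 rose and 4 fell against set b (11.3% and 15.4%). Those that rose against both numbered 11 (3.72% of clusters), among them LAMP3 (1.51 and 0.99), SP110 (1.18 and 0.83), RTP4 (1.14 and 1.02), SP100 (0.98 and 0.54) and LGALS3BP (0.85 and 0.32) against sets a and b. SHFL (0.65 and 0.56), TRANK1 (0.61 and 0.84), TNFSF10 (0.50 and 0.79), APOL1 (0.49 and 0.53) and MAVS (0.43 and 0.59) also rose against both. They include SP100 and SP110, which are nuclear body proteins, RTP4 and SHFL, which restrict viral RNA, and TNFSF10, the death ligand TRAIL. The single gene lower against both sets was IFITM2 (-0.42 and -0.37), the neighbour of IFITM1, which was higher against set a.

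With shEED, 1 of the 61 rose and 16 fell against set b (6.63% and 7.53% of clusters), and 8 rose and 16 fell against set a (22.8% and 13.9%). The 8 that rose against set a are a smaller share than that of all clusters. Genes lower against both numbered 11 (4.74% of clusters), among them GBP3 (-0.92 and -0.68), STING1 (-0.84 and -0.87), IKBKE (-0.80 and -0.91), RTP4 (-0.73 and -0.61) and IRF2 (-0.62 and -0.94) against sets b and a. STING1 is the adaptor of DNA sensing and IKBKE a kinase that activates IRF3 and IRF7. APOL1 (-0.59 and -0.62), IFITM2 (-0.57 and -0.62), SHFL (-0.51 and -0.42), IFI16 (-0.41 and -0.57) and PML (-0.41 and -0.52) were also lower against both. RTP4, APOL1, SHFL and IFI16 were thus higher with shEZH2 and lower with shEED against both sets. These 4 were read off the lists after their values were seen. Singly, 3.72% of clusters were higher with shEZH2 and 4.74% lower with shEED against both sets, and the share with both patterns is not given. With EZH2 cDNA 1 of the 61 rose (0.909% of clusters), CD274 (0.82 ± 0.13 (adjusted p = 0.0127)), which encodes the checkpoint ligand PD-L1 and was named after its value was seen. In MDA-MB-468 with shEZH2 0 rose and 2 fell, no larger a share than the 2.73% and 5.57% of all clusters, namely TNFSF10 (-0.69 ± 0.12 (adjusted p = 0.00622)) and PTPN2 (-0.50 ± 0.13 (adjusted p = 0.0417)), with 2 higher and 11 lower at an unadjusted p under 0.05 in limma.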

How the data were processed

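Total RNA was hybridised to 16 Affymetrix Human Gene 1.0 ST arrays. The deposited values are log2 signals, made by the authors with RMA in Affymetrix Expression Console, per the submitters' processing notes, with software versions and genome build not given in the sources used here. Cluster symbols came from the platform annotation. The deposited log2 values were used unchanged. Clusters with a log2 value of at least 6 on at least 2 arrays were tested (16175), in a single limma 3.58.1 fit (R 4.3.3; lmFit and eBayes) of 8 group means over all 16 arrays, with 8 residual degrees of freedom, two-sided contrasts and Benjamini-Hochberg adjustment across all tested clusters, called under 0.05. The script was checked on data with known answers. The members and lists were chosen with earlier results of these data known. All 44 listed genes are named. Values on every array are given for genes called in 1 direction against both scrambled sets, the sensors, IRF1, IRF7 and IRF9, and genes called in MDA-MB-468; the others have group means. Other pathway genes were named where called in 1 direction against both sets or in MDA-MB-468, at most 10 per comparison. Alternatives were another floor or none, median centring, renewed quantile normalization, a trended robust eBayes, the compared arrays alone, another cluster of a gene, a replicate block, each array left out in turn, the other control set, and the empty vector as control (added after seeing the data). Arrays with the same replicate number did not deviate together, so the numbers were not taken to pair the samples. Related genes such as the IFIT and IFITM families can share probe sequence, which was not checked.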

Additional observations from a re-analysis of the deposited data

Results flagged for a closer look

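The change with shEZH2 in HCC70 minus the change in MDA-MB-468, on the log2 scale, was called by limma at an adjusted p under 0.05 for 28 of 41 genes with scrambled set a as the HCC70 control. The values were IFIT1 2.34, IFIT3 1.29, IFIT5 1.25, OAS2 1.89, MX1 2.05, MX2 1.66, IFIH1 1.37, RIGI 1.34, IRF1 0.90 and USP18 1.06. Further genes were UBE2L6 0.69, HERC6 0.94, PARP9 1.03, PARP14 1.10, DTX3L 0.49, BST2 0.73, IFITM1 1.28, IFI6 1.63, IFI27 0.74 and RSAD2 1.05. The remaining ones were CMPK2 0.74, XAF1 2.29, SAMD9 0.79, SAMD9L 1.18, IFI44L 1.504, IFI35 0.74, DDX60 1.35 and TRIM22 0.69.

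With set b as the control, 18 genes had a positive difference: IFIT1 1.20, OAS2 0.95, MX1 0.83, MX2 0.66, IFIH1 0.59, RIGI 0.73, UBE2L6 0.66, PARP9 0.94 and PARP14 0.75, and BST2 0.60, IFITM1 0.98, IFI6 1.08, IFI27 0.65, XAF1 0.90, SAMD9 0.69, SAMD9L 1.09, IFI35 0.43 and DDX60 0.58. GBP2 had a negative one, -0.53. The shEZH2 arrays of HCC70 and all MDA-MB-468 arrays enter both tests. For genes below the floor in MDA-MB-468, such as IFIT1, IFI27 and SAMD9L, a change there may be understated, and its part in the difference was not tested.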

How the results depend on the processing

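With only the arrays compared in the fit, which leaves fewer residual degrees of freedom, 22 of 41 genes were called with shEZH2 against set a, 14 against set b, 0 in MDA-MB-468 and 12 in the difference between lines against set b. With the empty vector as control, shEZH2 gave 18 calls, and IFIT5 (-0.22), EIF2AK2 (-0.0296), IRF1 (-0.22), RSAD2 (-0.14) and CMPK2 (-0.10) turned negative, in no case called. With both sets as control for shEED, RSAD2 was at 0.0099. Against the empty vector, set a alone gave 28 calls and set b alone 1, where 4022 and 307 of all tested clusters were called in either direction. With set b alone, IFIT5 (0.0542), IFIH1 (0.0024), IRF1 (0.0184) and XAF1 (0.0154) turned positive. Between lines, IFIH1 was at 0.0792 with set a alone, and IRF1 at -0.39 and TRIM22 at -0.14 with set b alone; apart from the arrays used, the cause was not tested. With 1 array left out at a time, the counts ranged from 28 to 33 (shEZH2, set a), 12 to 18 (shEZH2, set b), 16 to 17 (shEED, set b), 10 to 11 (shEED, set a), 0 to 0 (EZH2 cDNA), 1 to 10 (MDA-MB-468), 21 to 23 (set b against set a), 31 to 33 (between knockdowns), 36 to 38 (between lines), 9 to 12 (scrambled against empty vector), and 23 to 30 and 12 to 18 (difference between lines, sets a and b). Fitting the replicate number as a block gave 36 and 20 calls with shEZH2 against sets a and b, 23 and 16 with shEED against sets b and a, 0 with EZH2 cDNA, 11 in MDA-MB-468, and 26, 34, 38, 15, 28 and 20 in the remaining comparisons in the same order; same-numbered arrays correlated at -0.044 to 0.077, so the labels share only a number. Over all clusters, calls with shEZH2 against set a (1837) ranged from 276 with only the arrays compared to 3977 with the empty vector as control, and those in MDA-MB-468 (1343) from 21 to 1552. The cDNA calls (158) ranged from 0 to 218, those with shEZH2 against set b (4325) from 2143 to 4806, with shEED against set b (2290) from 1013 to 4465 and against set a (5940) from 3606 to 7741. Signal over background limits the genes below the floor, which are 16 of 42 in the MDA-MB-468 scrambled group.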
